A study of Mus musculus with 4 samples.

Results

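The axon guidance ligands and receptors of the dorsal ventricular-subventricular zone (V-SVZ) are described here across cell states, lineages and ages. They were chosen by gene symbol alone, as the classical semaphorins, ephrins, Slits and netrins and their plexin, neuropilin, Eph, Robo, Unc5 and Dcc receptors. Of 68 symbols of this form among the 31053 genes listed, 66 had at least 20 UMIs (unique molecular identifiers, each standing for 1 captured RNA molecule) summed over all libraries, as had 18586 genes in all. These 66 genes were 33 ligands (20 semaphorins, 5 A-type and 3 B-type ephrins, 3 Slits and 2 netrins) and 33 receptors (9 plexins, 9 EphA and 5 EphB receptors, 3 Robo and 4 Unc5 receptors, 2 neuropilins and Dcc). Below the minimum lay Ntn5 with 15 UMIs and Robo3 with 12, and the members nearest above it were Epha2 with 50, Sema3g with 55 and Epha1 with 56.

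Cells were taken by microdissection from the dorsal V-SVZ, a germinal layer that lines the lateral ventricle. The mice were OF1 wild type, and cells were sequenced with the 10x Chromium 3′ chemistry. There was 1 library at postnatal day 2 (P2), 2 at P12 (replicates 1 and 2, from independent experiments) and 1 at P22. The labels give all mice as male, while the methods report that a female was included at P2. The methods give 2 mice pooled per time point, and whether each P12 library held 1 mouse or 2 is not clear. No group carried a mutation or treatment. With 1 library each, P2 and P22 have no replicate of their own.

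Guidance molecules were first known as cues that attract or repel growing axons: secreted class 3 semaphorins act through neuropilin and plexin complexes, Slits through Robo receptors, and netrins through Dcc and Unc5 receptors. Ephrins are bound to the membrane and signal in both directions with Eph receptor tyrosine kinases on neighbouring cells. In the V-SVZ the same families are known for steering chains of neuroblasts toward the olfactory bulb and for acting on stem cell proliferation, with Slits as repellents of migrating neuroblasts.

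The deposited matrices held 4608 barcodes at P2, 8617 and 6400 in the P12 replicates and 4880 at P22, with 65323423 to 106402687 UMIs per library. Cells with 2000 to 8000 detected genes and under 10% mitochondrial UMIs were kept, 4027, 7004, 4596 and 4230 in the same order, with median depths of 11853.5 to 14303 UMIs. Any pair of libraries shared 5 to 12 barcode sequences. Clusters were called "-like" after marker genes, the guidance genes took no part in the clustering, and a class entered a test only from libraries that held at least 20 of its cells. Names were set at P12 and transferred to P2 and P22. The median transfer scores at P2 and P22 were 0.94 and 0.95 in qNSC-like, 0.84 and 0.85 in aNSC-like and 0.79 and 0.63 in ependymal-like cells. P12 replicate 2 stood apart by holding only 15 neuroblast-like and 4 oligodendroglial-like cells, against 121 to 2038 and 119 to 390 in the other libraries. The file headers name another version of Cell Ranger for both P12 libraries (3.1.0) than for P2 and P22 (5.0.1), so that this version and the age of P12 cannot be told apart. Levels are given as CPM, the UMIs of a gene per 1000000 UMIs summed over a class, in the order P2, P12 replicate 1, P12 replicate 2 and P22 unless stated. A 3′ UMI counts a molecule once whatever its length, so CPM were not scaled by transcript length.

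The sequences upstream of the start sites of 4 members are shown because these genes were among those that differed between the lineages, regions and glial classes below: Sema3c and Unc5a with the glutamatergic lineage, Nrp1 with glutamatergic neuroblasts and astrocytes, and Epha3 with the subpallial side of quiescent stem cells. Each is the 250 bases before the start site that RefSeq gives, 5′ to 3′ on the gene's strand, in build GRCm38.p6. Capitals mark an E-box of the form CAGATG or CAGCTG, searched on both strands. E-boxes are the sites of basic helix-loop-helix factors, the family of the pallial gene Neurod1.

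Sema3c, chr5:17574566-17574815, plus strand: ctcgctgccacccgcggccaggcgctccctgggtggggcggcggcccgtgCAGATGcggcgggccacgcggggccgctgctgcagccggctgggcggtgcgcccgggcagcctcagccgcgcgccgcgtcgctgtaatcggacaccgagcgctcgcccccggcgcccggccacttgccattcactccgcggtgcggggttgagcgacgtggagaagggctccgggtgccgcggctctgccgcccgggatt

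Unc5a, chr13:54949161-54949410, plus strand: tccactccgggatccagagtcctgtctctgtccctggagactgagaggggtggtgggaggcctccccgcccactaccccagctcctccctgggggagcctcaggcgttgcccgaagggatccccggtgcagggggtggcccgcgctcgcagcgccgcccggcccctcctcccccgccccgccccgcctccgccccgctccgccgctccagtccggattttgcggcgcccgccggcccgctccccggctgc

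Nrp1, chr8:128358823-128359072, plus strand: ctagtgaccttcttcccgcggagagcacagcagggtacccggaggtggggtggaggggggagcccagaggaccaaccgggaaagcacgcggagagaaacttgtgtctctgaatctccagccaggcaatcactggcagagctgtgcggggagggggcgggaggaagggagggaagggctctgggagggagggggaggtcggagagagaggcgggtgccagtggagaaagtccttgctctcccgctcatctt

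Epha3, chr16:63864176-63864425, minus strand: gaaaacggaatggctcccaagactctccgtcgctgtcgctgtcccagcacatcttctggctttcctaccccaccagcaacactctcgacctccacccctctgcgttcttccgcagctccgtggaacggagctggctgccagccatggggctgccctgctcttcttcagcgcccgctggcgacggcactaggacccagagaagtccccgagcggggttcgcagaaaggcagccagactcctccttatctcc

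For Sema3c and Nrp1 the GENCODE gene begins before the RefSeq start site, at 17574281 and 128358604, so that these stretches lie within the GENCODE gene. The sequences were rich in G and C, 78.4% in Sema3c, 76.8% in Unc5a, 64.4% in Nrp1 and 62.8% in Epha3. Only that of Sema3c held a match, a CAGATG beginning 200 bases before the start site. Of the 66 members, 56 had an upstream sequence in the RefSeq table, and Unc5d and Slit1 had none. CAGATG stood in 5 of these 56 (8.93%), against 14.4% of all 32851 upstream sequences of the same length. CAGCTG stood in 11 of 56 (19.6%), against 13% of all. Among the members higher in glutamatergic neuroblast-like cells (below), 1 of 14 with a sequence held CAGATG and 1 of 14 held CAGCTG.

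**Figure D1:**
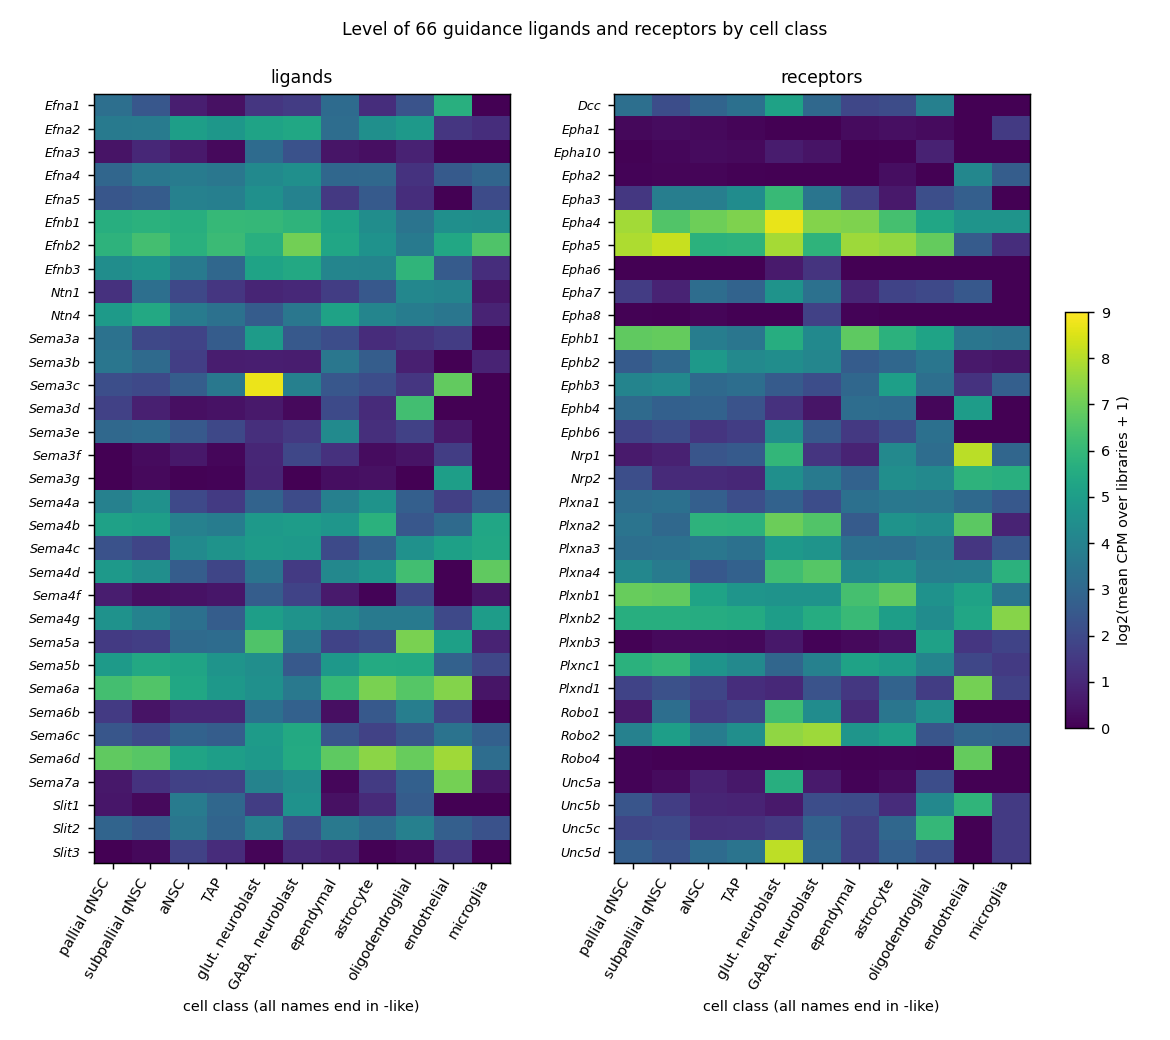
Heat map of the levels of the 66 members (rows, ligands and receptors) in each cell class (columns) as log2(CPM + 1), averaged over libraries. Sema3d and Plxnb3 are bright in the oligodendroglial-like column and Robo4 in the endothelial-like column, while Epha4 is high in most neural classes.

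The most abundant guidance transcripts were shared between several classes. Quiescent stem cells (qNSC-like), in their pallial and subpallial clusters, had the transmembrane semaphorins Sema6d and Sema6a and ephrin-B2 (Efnb2) as their most abundant ligands. Sema6d reached 109, 181 and 40.6 CPM in pallial and 112, 174 and 41.2 CPM in subpallial qNSC-like cells of P12 replicate 1, P12 replicate 2 and P22, so that the clusters overlapped over most of their range. Their most abundant receptors were Epha5, with 190 to 277 CPM in pallial cells of these libraries and 213 to 381 CPM in subpallial cells, and Plxnb1, a plexin for class 4 semaphorins, together with Epha4 in the pallial and Ephb1 in the subpallial cluster. In activated stem cells (aNSC-like) and transit-amplifying progenitors (TAP-like) the ephrins Efnb2 and Efnb1 led the ligands and Epha4 the receptors. Epha4, which binds ephrins of both types, was at 106, 202, 187 and 116 CPM in TAP-like cells. Efnb2 was at 69.9, 84.3, 64 and 55.5 CPM there, so that a promiscuous Eph receptor and one of its ligands were both abundant in dividing progenitors in every library.

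Some glial and vascular classes shared these leading genes. Sema6d and Sema6a led the ligands of ependymal-like, astrocyte-like and endothelial-like cells and Epha5 the receptors of ependymal-like and astrocyte-like cells, and Sema6d was at 108, 172, 329 and 76.2 CPM in astrocyte-like cells. Oligodendroglial-like cells had Sema5a as their leading ligand and Unc5c, a netrin receptor, among their leading receptors. Endothelial-like cells were few (5, 18, 29 and 17 cells) and are described without a test. The 8 endothelial markers summed to 4988, 12976, 11464 and 10061 CPM in them. The 8 mural markers summed to 11399, 8298, 1735 and 18431 CPM, more than the endothelial ones at P2 and P22, and 4 fibroblast markers to 2765 CPM at P22. The class thus held mural beside endothelial transcripts, and their parts in its levels were not tested. Robo4, the endothelial member of the Robo family, was at 48, 118, 165 and 136 CPM in them, and at 0.2 CPM or less in every other class. Nrp1, the neuropilin that also serves as a coreceptor for vascular endothelial growth factor, was at 208, 323, 424 and 115 CPM and Plxnd1, the plexin of blood vessels, at 95.9, 118, 312 and 27.2 CPM. The endothelial-like cells of both P12 libraries also carried hemoglobin transcripts, summed to 89910 and 23446 CPM, against 0 at P2 and P22. Microglia-like cells (0, 8, 10 and 75 cells) had Sema4d as their leading ligand, at 74.4, 170 and 84.5 CPM in the P12 and P22 libraries, and Plxnb2, one of its plexin receptors, at 136, 232 and 129 CPM.

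Quiescent and activated stem cells differed in many members, as in many other genes. The classes are compared as states, and no order of descent was tested. The 17 aNSC markers summed to 4181, 4801, 5149 and 3550 CPM in aNSC-like and 14606, 1532, 1799 and 1071 CPM in qNSC-like cells. At P2 this sum was thus the higher in qNSC-like cells. The 20 qNSC markers were higher in qNSC-like cells of every library (23159 to 49382 against 1880 to 8080 CPM). A member is said to have risen where it was called higher in aNSC-like than in qNSC-like cells, in TAP-like than in aNSC-like cells or in neuroblast-like than in TAP-like cells. Of 53 members tested between aNSC-like and qNSC-like cells over all 4 libraries, 12 rose and 23 fell, 35 in all, while 61.5% of all genes tested were called in this comparison, 29.8% higher and 31.6% lower (edgeR quasi-likelihood test, Benjamini-Hochberg adjusted p under 0.05). The median log2 fold change of the members was −0.64, against −0.02 over all genes. Among the ligands 8 of 28 rose and 12 fell, and among the receptors 4 of 25 rose and 11 fell. All 3 Slits rose, whereas 9 of 16 semaphorins tested fell and 3 rose.

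Slit1, a secreted Robo ligand on chromosome 19 (41600257 to 41743665, minus strand), was nearly absent from qNSC-like cells, with 0.196, 0.11, 0.18 and 0.618 CPM. In aNSC-like cells it was at 6.61, 19.3, 9.68 and 13.3 CPM, and the classes did not overlap. Its log2 fold change was 5.87 ± 0.47 (SE; adjusted p = 6.74e-05 by edgeR). Plxna2, a receptor for class 6 semaphorins, was at 10.6, 10.4, 9.49 and 4.94 CPM in qNSC-like and 47.6, 61.6, 79.8 and 31.3 CPM in aNSC-like cells. It was higher in the aNSC-like cells of each library, by 2.59 ± 0.17. Sema4c, a transmembrane semaphorin, rose from 3.73, 2.86, 3.85 and 2.68 CPM to 20.3, 20.1, 18.2 and 16.4 CPM (2.48 ± 0.20). The receptors Epha7 (2.67 ± 0.57) and Ephb2 (2.13 ± 0.21) and the ligands Sema5a (1.93 ± 0.31), Efna5 (1.65 ± 0.20) and Efna2 (1.21 ± 0.23) also rose, each in 4 of 4 libraries.

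Members lower in aNSC-like cells included Epha5 and Ephb1, abundant receptors of quiescent cells, but not Epha4, at 108, 191, 244 and 65.5 CPM in qNSC-like and 97.7, 170, 145 and 94.3 CPM in aNSC-like cells (−0.18 ± 0.21, not called). Ephb1, a receptor of B-type ephrins, went from 60.9, 134, 153 and 80.5 CPM in qNSC-like cells to 3.84, 12.7, 27.7 and 8.47 CPM in aNSC-like cells, with no overlap (−3.25 ± 0.22, adjusted p = 3.79e-05 by edgeR). Epha5, on chromosome 5 (84054761 to 84417382, minus strand), went from 253, 276, 317 and 204 CPM to 32, 63.8, 86.2 and 27.5 CPM (−2.49 ± 0.20). Its ligand Efna5 thus rose while Epha5 fell. Sema4a was at 17.5, 17.1, 18.1 and 21.6 CPM in qNSC-like and 3.84, 1.78, 4.61 and 1.63 CPM in aNSC-like cells (−2.81 ± 0.32). Efna1 (−3.31 ± 0.48), Sema3b (−2.19 ± 0.31), Sema4d (−2.13 ± 0.23), the plexin Plxna4 (−1.75 ± 0.23) and Ntn4 (−1.74 ± 0.29) fell as well. The ranges of Sema4d and Ntn4 overlapped between the classes, although each fell within 4 of 4 libraries. None of these 16 calls was lost when any 1 library was left out. With thresholds on marker transcripts in place of clusters Sema5a was not called (1.18, adjusted p = 0.0715 by edgeR).

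Of the genes that carry guidance signals inside the cell, 43 of a list of 45 effectors (collapsin response mediators and the like) were tested in this step, of which 12 rose and 15 fell. Of 22 tested genes of a list of 23 other guidance molecules (repulsive guidance molecules, adhesion receptors and the like), 8 rose and 7 fell. The shares called, like that of the members, lay near the 61.5% of all genes.

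**Figure D2:**
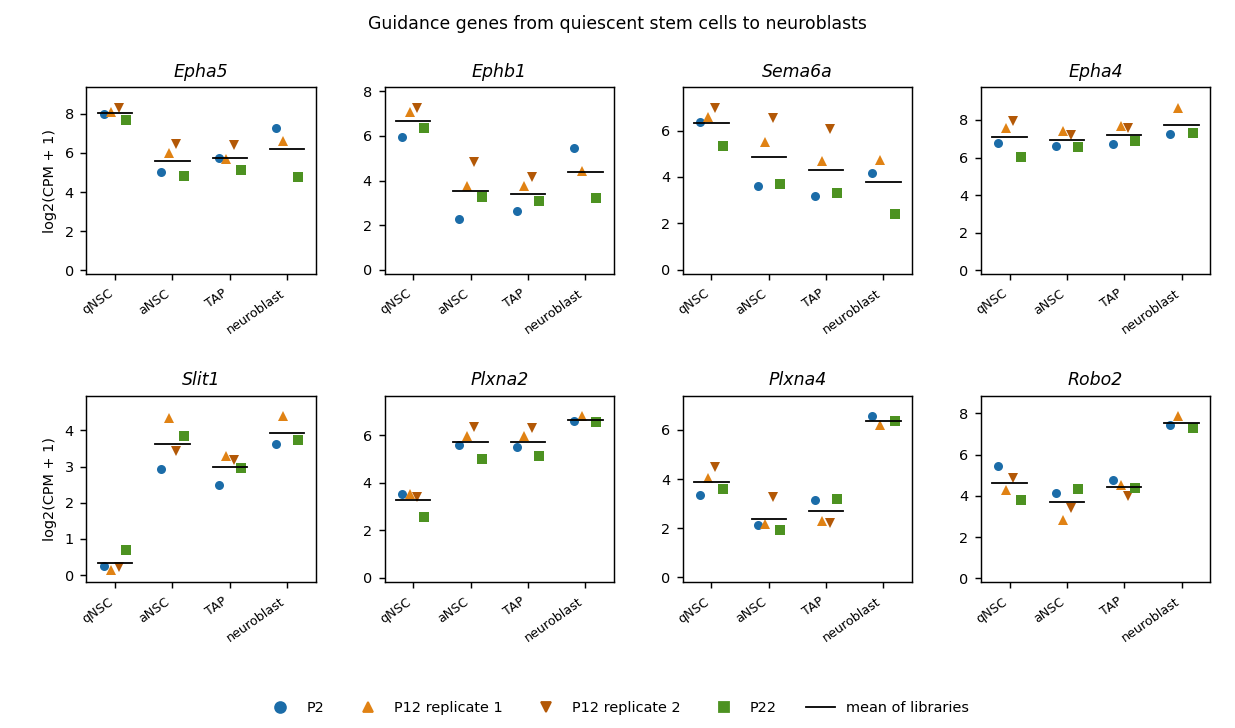
Levels of 8 members from quiescent stem cells to neuroblasts as log2(CPM + 1), with 1 symbol per library and a line at the mean of the libraries shown. Epha5, Ephb1 and Sema6a are highest in qNSC-like cells, Slit1 and Plxna2 are higher in aNSC-like than in qNSC-like cells, and Plxna4 and Robo2 are highest in neuroblast-like cells, of which P12 replicate 2 held too few to be shown.

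Between aNSC-like and TAP-like cells the named members differed by about 1 or less on the log2 scale. The 21 neuroblast markers summed to 7454, 1958, 1060 and 6728 CPM in aNSC-like and 6430, 4841, 1615 and 5541 CPM in TAP-like cells, higher in aNSC-like cells at P2 and P22 and lower at P12, and their part in this comparison and in that with qNSC-like cells was not tested. The 7 subpallial genes summed to 1732, 241, 82.1 and 1128 CPM in aNSC-like and 1534, 900.1, 142 and 1093 CPM in TAP-like cells. Of 54 members tested, 9 rose and 13 fell, against 35.8% of all genes called (19.1% higher and 16.7% lower), and the median was −0.02 for the members and −0.00 for all genes. The largest rises among members at 5 CPM or more were those of the secreted semaphorins Sema3a (1.07 ± 0.26) and Sema3c (1.06 ± 0.25), followed by Robo2 (0.92 ± 0.23) and Epha3 (0.77 ± 0.18). Sema3c was at 4.27, 5.33, 6.69 and 4.64 CPM in aNSC-like and 12.1, 10.3, 18.3 and 3.79 CPM in TAP-like cells, higher in TAP-like cells of 3 libraries and lower at P22. Efnb2 (0.57 ± 0.15), Efnb1 (0.55 ± 0.12), Sema4c (0.50 ± 0.10) and Dcc (0.62 ± 0.21) rose by less, Efnb1 and Dcc in 3 of 4 libraries and not at P22. Among those that fell were Sema4d (−0.87 ± 0.21), Slit1 (−0.64 ± 0.16), Sema4g (−0.60 ± 0.15), Efnb3 (−0.55 ± 0.17), Plxna1 (−0.55 ± 0.18), Slit2 (−0.50 ± 0.15), Sema5b (−0.50 ± 0.10) and Ephb2 (−0.48 ± 0.09).

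Many of these calls depended on 1 library. Without P12 replicate 2 the number called went from 22 to 14. Leaving out 1 library ended the calls of Sema3a, Sema3c, Dcc, Sema4d, Slit1, Sema4g, Efnb3, Plxna1 and Slit2 (adjusted p = 0.0584 to 0.275 by edgeR), each without at least 1 of the P12 libraries. The calls of Dcc, Efnb3, Plxna1 and Slit2 were also lost without P2, and those of Slit1 and Plxna1 without P22. When classes were set by thresholds on marker transcripts in place of clusters, Sema3a, Sema3c, Robo2 and Dcc turned lower (log2 fold changes −1.10, −1.76, −1.09 and −0.04) and Slit1 and Ephb2 turned higher (2.73 and 1.61) in TAP-like cells, all but Dcc past the threshold. Under these thresholds Sema4g, Plxna1, Slit2 and Sema5b were no longer called (adjusted p = 0.0597 to 0.349 by edgeR). DESeq2 did not call Dcc and Plxna1. Of the effectors 8 of 42 rose and 4 fell, and of the other guidance molecules 5 of 23 rose and 5 fell.

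The step into neuroblasts went mostly one way. Of 60 members tested between neuroblast-like and TAP-like cells of P2, P12 replicate 1 and P22, 31 rose and 3 fell, while 47.3% of all genes were called, 22.9% higher and 24.4% lower. The median log2 fold change was 1.05 for the members and 0.02 for all genes. Ligands (15 of 31 rose, 1 fell) and receptors (16 of 29 rose, 2 fell) both rose in most calls. All 4 Unc5 receptors, both neuropilins and both Robo receptors tested rose, as did 10 of 18 semaphorins.

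Plxna4, a plexin that pairs with neuropilins, was at 7.83, 3.91 and 8.15 CPM in TAP-like cells of P2, P12 replicate 1 and P22 and at 93.9, 71.5 and 81 CPM in neuroblast-like cells, with no overlap (3.50 ± 0.17, adjusted p = 3.05e-05 by edgeR). Robo2, a Slit receptor, was at 26.2, 22.3 and 20.1 CPM and then at 170, 234 and 156 CPM, again with no overlap (2.84 ± 0.14, adjusted p = 3.06e-05 by edgeR). Robo2 was abundant in glutamatergic and GABAergic neuroblast-like cells, at 173, 182 and 190 CPM in the former and 169, 295 and 154 CPM in the latter. Robo1 (3.13 ± 0.39), Nrp2 (3.35 ± 0.38) and Sema6b (2.47 ± 0.42) rose as well.

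Among members at 5 CPM or more the largest rise was that of Unc5a, a netrin receptor on chromosome 13 (54949411 to 55006018, plus strand), from 0.503, 0.353 and 0.134 CPM in TAP-like cells to 10.4, 25.6 and 2.41 CPM in neuroblast-like cells (4.91 ± 0.47). Unc5d rose by 3.33 ± 0.20 and Sema3c by 3.30 ± 0.31. Sema3c was at 87.5, 226 and 30.9 CPM in neuroblast-like cells of P2, P12 replicate 1 and P22. These libraries held 317, 62 and 59 glutamatergic beside 1721, 59 and 1398 GABAergic neuroblast-like cells. The Sema3c level and the glutamatergic share were both highest in P12 replicate 1. Unc5a and Unc5d had the same order of libraries. The part of the glutamatergic share in these levels was not tested, and the libraries also differ in age. Sema5b (−1.53 ± 0.39) and Ephb3 (−1.25 ± 0.25) fell, the former no longer called without P22 (adjusted p = 0.0662 by edgeR). With thresholds on marker transcripts in place of clusters Ephb3 was higher in neuroblast-like cells (0.65) and not called. Of the effectors 23 of 44 tested rose and 4 fell, and of the other guidance molecules 16 of 23 rose and 3 fell.

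The glutamatergic and GABAergic lineages differed most in a small set of receptors and secreted semaphorins. Neuroblast-like cells formed a glutamatergic cluster, whose leading genes included Eomes, Neurod1, Tbr1 and Sema3c, and a GABAergic cluster, led by neuronal genes such as Stmn2 and Myt1l. The regional transcripts and the guidance genes, Sema3c included, took no part in forming them. The 6 pallial regional genes summed to 992 to 1416 CPM in the former and to 0 to 14.2 CPM in the latter, and the 7 subpallial ones to 9.94 to 64.7 and 1544 to 2084 CPM. Between these clusters, in P2, P12 replicate 1 and P22, 16 of 47 members tested were higher in glutamatergic and 3 higher in GABAergic cells, with 11.4% of all genes called in either direction, 6.14% higher and 5.26% lower. The median log2 fold change was 0.44 for the members and −0.00 for all genes. Receptors made up 10 of the 16 and ligands 6.

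Sema3c, a secreted semaphorin on chromosome 5 (17574281 to 17730268, plus strand), was at 435, 403 and 441 CPM in glutamatergic and at 13.6, 18.1 and 10.1 CPM in GABAergic neuroblast-like cells of P2, P12 replicate 1 and P22. The clusters were far apart in every library, with a log2 difference of 4.92 ± 0.20 (adjusted p = 1.45e-05 by edgeR). It was the most abundant guidance ligand of the glutamatergic cluster. A Sema3c UMI was found in 94.6% (95% exact interval 91.6 to 96.8), 87.1% (76.1 to 94.3) and 94.9% (85.9 to 98.9) of glutamatergic cells. In GABAergic cells it was found in 7.79%, 13.6% and 6.29%. With each cell thinned to 5000 UMIs the shares were 80.8%, 77.4% and 83.1% against 4.34%, 5.17% and 4.23%, and in oligodendroglial-like cells of P22, where the gene was at background, 0.258%. Median depths were 10851 to 14380.5 UMIs in glutamatergic, 9039.5 to 12414 in GABAergic and 16429.5 in oligodendroglial-like cells. Intervals cover counting error only.

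Unc5d, a netrin receptor of migrating cortical neurons on chromosome 8 (28646717 to 29219636, minus strand), was at 325, 270 and 229 CPM in glutamatergic and 11.7, 5.17 and 4.4 CPM in GABAergic cells (5.08 ± 0.23). Unc5a was at 52, 47.5 and 47.1 CPM against 1.6, 0 and 0.149 CPM (5.70 ± 0.52). Nrp1, the neuropilin that binds class 3 semaphorins, was at 93.2, 41.9 and 50 CPM against 3.81, 0 and 1.04 CPM (4.84 ± 0.33). The ranges of all 3 receptors were separate. Sema5a (2.90 ± 0.22), Epha3 (2.59 ± 0.34), Sema3a (2.55 ± 0.27) and Sema4d (2.20 ± 0.42) were also higher in glutamatergic cells, and Epha4, the most abundant receptor of both lineages or next to it, was at 319, 556 and 369 CPM against 119, 219 and 144 CPM.

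Fewer members marked the GABAergic cluster. Slit1 was at 13.2, 42.7 and 12.9 CPM in GABAergic and 2.18, 1.1 and 2.94 CPM in glutamatergic neuroblast-like cells, with no overlap (−3.20 ± 0.48, adjusted p = 0.00399 by edgeR). Efnb2, at 106, 159 and 140 CPM against 54.4, 56.3 and 38.2 CPM, was the leading ligand of GABAergic cells (−1.51 ± 0.20). Unc5c was lower in glutamatergic cells by −1.90 ± 0.50 (adjusted p = 0.0474 by edgeR), a call lost without P22 (adjusted p = 0.125) and with DESeq2 (0.196). Robo2, the Slit receptor, and Plxna4 were the leading receptors of the GABAergic cluster beside Epha4, but were not called between lineages (log2 differences −0.24 ± 0.18 and −0.60 ± 0.51). None of the 43 effectors tested was higher in glutamatergic cells and 9 were lower, and of 22 other guidance molecules 5 were higher and 8 lower.

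**Figure D3:**
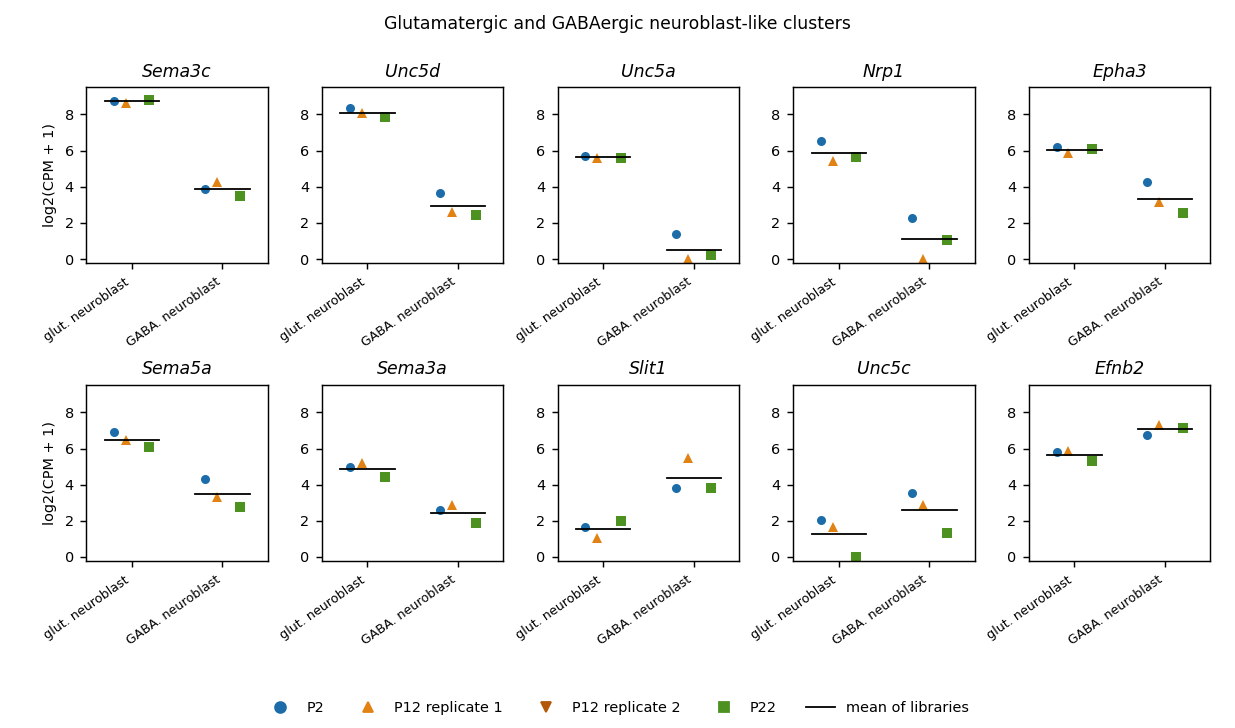
Levels of members in the glutamatergic and GABAergic neuroblast-like clusters as log2(CPM + 1), with 1 symbol per library and a line at their mean. Sema3c, Unc5d, Unc5a and Nrp1 are higher in glutamatergic and Slit1 and Efnb2 in GABAergic cells in each of the 3 libraries with enough cells.

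The same lineages were compared by regional genes, Gad1 among the subpallial ones, in TAP-like and neuroblast-like cells together. Cells that carried pallial but no subpallial transcripts were called GLU and the reverse GABA (221, 137, 122 and 39 GLU and 1836, 629, 58 and 1691 GABA cells). Of 50 members tested over 4 libraries, 10 were higher in GLU and 1 in GABA cells, against 9.06% of all genes (4.85% and 4.21%), with medians of 0.45 for the members and −0.04 for all genes. Unc5a (6.16 ± 0.58), Unc5d (5.18 ± 0.16), Sema3c (4.81 ± 0.22), Sema5a (2.47 ± 0.26) and Sema3a (2.23 ± 0.23) led, and Slit1 was lower (−3.41 ± 0.32). Sema3c was at 406, 164, 76 and 301 CPM in GLU and 11.5, 8.72, 1.9 and 6.48 CPM in GABA cells, and Unc5d at 303, 125, 73 and 167 CPM against 6.9, 4.01, 2.38 and 3.04 CPM, so that no library overlapped. The share of neuroblast-like cells differed between the gates, at 94.1%, 39.4%, 6.56% and 84.6% of GLU and 81.3%, 8.59%, 10.3% and 70.4% of GABA cells, and the GLU levels of both genes were lowest in the P12 libraries, where this share was lowest. Its part in the result was not tested.

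Ephb6 (2.00 ± 0.33), Epha5 (1.26 ± 0.29) and Sema5b (1.05 ± 0.23) were called higher in GLU cells as well, but not without P2, without P12 replicate 1 or without P22 (adjusted p = 0.056 to 0.187 by edgeR). The number of members called was 7 without P2, 17 without P12 replicate 2 and 6 without P22. Within the P12 libraries alone the same 3 were not called (adjusted p = 0.121 to 0.193 by edgeR). Of 43 effectors tested 7 were lower and 0 higher in GLU cells, while of 23 other guidance molecules 4 were higher and 4 lower.

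In quiescent stem cells several of the same receptors were called between regions, some in the opposite direction: Epha4 and Dcc were higher on the pallial side, while Epha3, Robo1 and Epha5 were higher on the subpallial side and, between neuroblast-like clusters, in glutamatergic cells. The pallial cluster summed to 175 to 263 CPM of the 6 pallial regional genes against 12.7 to 53.9 CPM in the subpallial cluster, and these genes took no part in the clustering. Of 52 members tested in the P12 libraries and P22, 15 were higher in pallial and 12 higher in subpallial qNSC-like cells, against 26.5% of all genes called (12.9% and 13.6%). The median was −0.10 for the members and 0.01 for all genes. The largest differences lay on the subpallial side.

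Epha3, a receptor of A-type ephrins on chromosome 16 (63543534 to 63864175, minus strand), was at 0.915, 1.34 and 2.97 CPM in pallial and 15.7, 16.4 and 8.81 CPM in subpallial qNSC-like cells of P12 replicate 1, P12 replicate 2 and P22 (−3.63 ± 0.27, adjusted p = 7.25e-07 by edgeR). Robo1, a Slit receptor on the same chromosome (72308306 to 73046095, plus strand), was at 0.559, 0.992 and 0 CPM against 6.45, 14 and 4.58 CPM (−3.74 ± 0.27, adjusted p = 5.98e-07 by edgeR). Netrin-1 (Ntn1), the ligand of Dcc and Unc5 receptors, was at 1.12, 1.75 and 1.49 CPM against 11.7, 9.94 and 7.75 CPM (−2.88 ± 0.24). No pallial value of these genes reached a subpallial one. At P2 the subpallial cluster held 12.7 CPM of Epha3, 9.16 CPM of Robo1 and 5.83 CPM of Ntn1, and the 18 pallial cells of that library were too few to compare.

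On the pallial side, Epha4 was at 228, 313 and 101 CPM against 95.3, 135 and 40.2 CPM, higher in each library although the ranges overlapped between ages (1.25 ± 0.07, adjusted p = 4.79e-08 by edgeR). Sema3a, a repellent acting through Nrp1, was at 12.9, 12.4 and 3.47 CPM against 3.03, 5.25 and 0.705 CPM (1.59 ± 0.21). Dcc, a transcript that the study uses for the dorsal lineage, was at 7.07, 13.5 and 5.95 CPM against 3.29, 7.41 and 1.76 CPM and was higher in the pallial cluster of each library (0.99 ± 0.19). Slit2, which the study uses for the ventral lineage, was at 8.9, 8.64 and 1.98 CPM in pallial and 5, 3.94 and 7.05 CPM in subpallial cells, and was not called (0.71 ± 0.28, adjusted p = 0.081 by edgeR). Its libraries differed in direction, higher in the pallial cluster at P12 and lower at P22.

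Smaller subpallial excesses were found for Robo2 (−1.01 ± 0.10), Sema4a (−0.61 ± 0.12), Efnb2 (−0.60 ± 0.07), Sema5b (−0.52 ± 0.10) and Epha5 (−0.39 ± 0.08), and smaller pallial ones for Efna1 (0.86 ± 0.27), Plxna2 (0.66 ± 0.17), Ephb4 (0.53 ± 0.18), Sema3b (0.49 ± 0.15) and Sema4g (0.48 ± 0.11). The last 5 were lost without P12 replicate 1 or without P12 replicate 2 (adjusted p = 0.0951 to 0.529 by edgeR), and the number of members called was 14 without P12 replicate 2. Sema5b and Sema4g had the called direction in only 2 of 3 libraries. DESeq2 called 14 of the members and not Plxna2, Ephb4, Sema3b, Sema4g or Sema5b (adjusted p = 0.0638 to 0.438 by DESeq2). With the unnamed cluster 3, whose leading genes include Rgs5, counted as pallial, Efna1, Ephb4 and Sema3b were not called. Ependymal marker genes summed to 198 to 279 CPM in pallial and 427 to 483 CPM in subpallial cells of the libraries tested, and their part in these differences was not tested. Of the effectors 2 of 43 were higher in pallial and 9 in subpallial cells, and of the other guidance molecules 7 of 19 and 4.

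The regional difference of qNSC-like cells was then set against that of TAP-like and neuroblast-like cells, with the same gates on regional transcripts in both. At P2 the gates gave 51 pallial and 132 subpallial qNSC-like cells, while the pallial cluster held only 18 of its 293 qNSC-like cells. Most pallial-gated stem cells of P2 thus lay in the cluster called subpallial, and their median transfer score was 0.54. For 3 of 53 members tested the pallial minus subpallial difference of qNSC-like cells differed from the GLU minus GABA difference, against 1.21% of all genes (0.816% called lower and 0.393% higher), and all 3 were receptors. Epha3 was at 1.1, 1.14, 1.62 and 1.43 CPM in pallial and 18.5, 15.2, 17 and 9.86 CPM in subpallial qNSC-like cells, but at 66.6, 27.4, 20.3 and 61.4 CPM in GLU and 18.8, 23.3, 35.2 and 21.3 CPM in GABA cells. The stem cell values were apart in each library, whereas the GLU value was the higher in 3 of 4 libraries and the lower in P12 replicate 2. The difference of differences was −4.0 ± 0.58 (adjusted p = 0.0083 by edgeR).

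Unc5d was at 7.71, 7.8, 7.65 and 2.86 CPM in pallial and 1.29, 7.28, 3.41 and 4.06 CPM in subpallial qNSC-like cells, which overlapped, while GLU and GABA cells were far apart (−4.24 ± 0.62, adjusted p = 0.0083 by edgeR). Robo1 was at 5.51, 0.416, 1.53 and 0 CPM in pallial and 12.9, 6.12, 15 and 2.9 CPM in subpallial qNSC-like cells. It was at 137, 6.93, 5.76 and 31.6 CPM in GLU and 23.7, 2.91, 7.13 and 8.13 CPM in GABA cells (−4.23 ± 0.95, adjusted p = 0.0493 by edgeR). No call remained without P12 replicate 1 (edgeR adjusted p = 0.188 for Epha3 and Unc5d and 0.398 for Robo1) or without P22 (edgeR adjusted p = 0.0945, 0.114 and 0.207 for Epha3, Unc5d and Robo1). Robo1 was also lost without P2 (edgeR adjusted p = 0.0806), without P12 replicate 2 (0.0571) and in the P12 libraries alone (0.0623). With each library left out in turn the log2 values of the 3 receptors ran from −4.53 to −3.43.

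**Figure D4:**
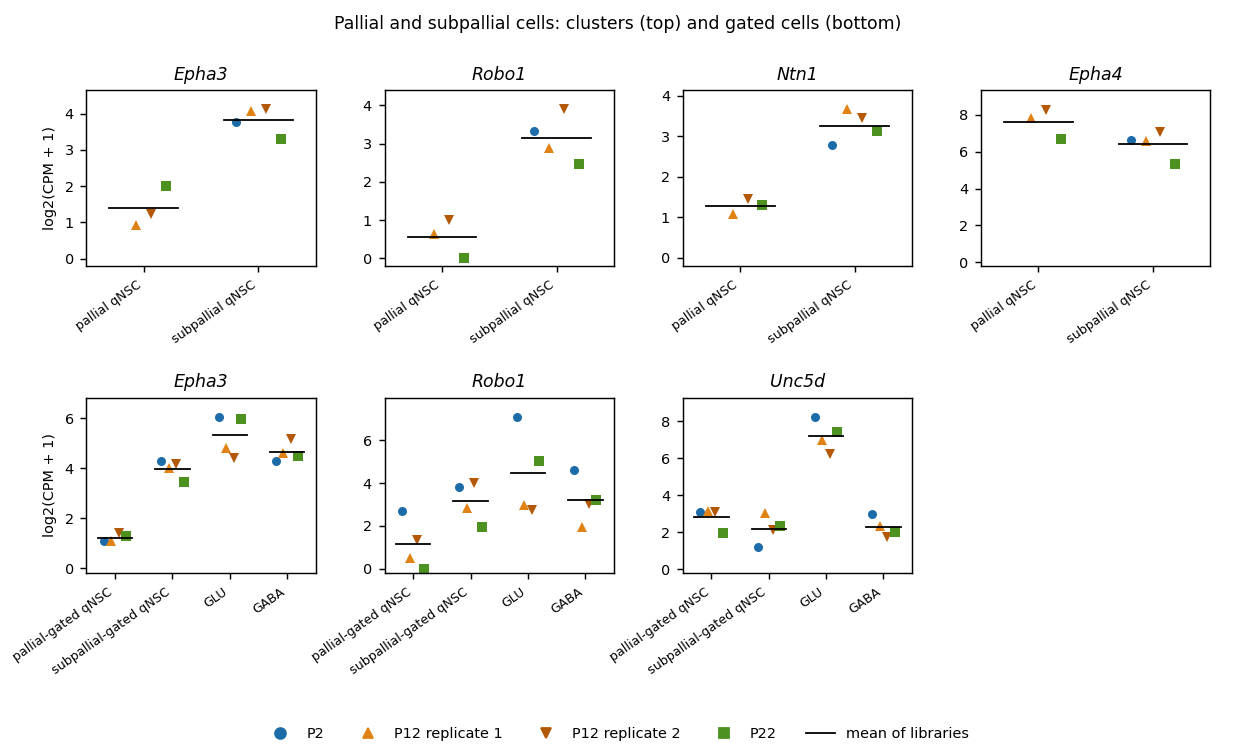
Levels of members in pallial and subpallial cells as log2(CPM + 1), with 1 symbol per library and a line at their mean. The top panels compare qNSC-like clusters, where Epha3, Robo1 and Ntn1 are higher in the subpallial and Epha4 in the pallial cluster, and the lower panels add cells gated by regional transcripts, where GLU cells are the highest in Unc5d.

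Ependymal-like cells, the multiciliated lining of the ventricle, held less of several guidance transcripts than qNSC-like cells. Of 48 members tested, 2 were higher and 13 lower, against 16.6% of all genes (10.2% higher and 6.42% lower), with medians of −0.42 for the members and −0.05 for all genes. Sema3e, a ligand of Plxnd1, was at 6.18, 14.9, 26.1 and 28.8 CPM in ependymal-like and 2.55, 8.54, 10.7 and 5.15 CPM in qNSC-like cells, higher within each library (1.18 ± 0.22), but was not called without P12 replicate 2 (adjusted p = 0.0609 by edgeR). Epha3 (−2.08 ± 0.36), Ephb3 (−1.18 ± 0.20), Efnb2 (−0.74 ± 0.11), Efnb1 (−0.65 ± 0.13) and Plxnc1 (−0.64 ± 0.12) were lower. Sema3a (−1.17 ± 0.31), Plxna2 (−0.91 ± 0.28) and Sema4d (−0.49 ± 0.15) were lower too, each in only 3 of 4 libraries. Each lost its call without P12 replicate 1 and without P12 replicate 2, Plxna2 also without P2 (adjusted p = 0.0624 to 0.539 by edgeR). The number called was 9 without P12 replicate 1 and 6 without P12 replicate 2, and DESeq2 called 9, without Sema3a, Plxna2 and Sema4d. Ependymal marker genes summed to 1201 to 4243 CPM in this cluster and to 331 to 370 CPM in qNSC-like cells. Of the effectors 2 of 42 were higher and 6 lower, and of the other guidance molecules 1 of 18 and 6.

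Astrocyte-like cells stood out from qNSC-like cells by their neuropilins, which were not particular to them. Nrp1 was higher still in glutamatergic neuroblast-like (41.9 to 93.2 CPM) and endothelial-like cells (115 to 424 CPM). It was also called higher in aNSC-like than in qNSC-like cells (2.58 ± 0.47). Nrp2 was at 13.2 to 26.3 CPM in oligodendroglial-like cells of P2, P12 replicate 1 and P22, and at 37.8 to 62.3 CPM in microglia-like cells. Nrp1 was at 4.47, 25.6, 27.3 and 13.9 CPM in astrocyte-like and 0.196, 0.917, 0.611 and 1.03 CPM in qNSC-like cells, with no overlap (4.98 ± 0.29, adjusted p = 3.69e-06 by edgeR). Nrp1 is also an endothelial gene, and the 8 endothelial markers summed to 9.35 to 17.7 CPM in astrocyte-like and 12.5 to 20.6 CPM in qNSC-like cells. Nrp2 was at 0, 20.5, 58.9 and 4.62 CPM against 1.57, 2.05, 5.03 and 0.412 CPM, higher in 3 of 4 libraries and listed at 0 in the 50 cells of P2 (3.33 ± 0.35). Over all 51 members tested 14 were higher and 13 lower than in qNSC-like cells, against 28.1% of all genes (14% higher and 14.1% lower), with medians of 0.29 for the members and −0.01 for all genes.

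Of 8 plexins tested 3 were higher in astrocyte-like cells and 2 lower, Plxnb2 (−0.52 ± 0.13) and Plxnc1 (−0.82 ± 0.15). Members that rose beside the neuropilins were Unc5c (1.55 ± 0.33), Plxna2 (1.45 ± 0.16), Robo1 (1.40 ± 0.39), Plxnd1 (1.27 ± 0.34) and Ephb3 (1.00 ± 0.13), and the ligand Sema4c (0.91 ± 0.29). Unc5c, Robo1, Plxnd1 and Sema4c were higher in only 3 of 4 libraries. Epha3 was at 0, 0.603, 0.798 and 0.77 CPM in astrocyte-like and 12, 5.02, 7.12 and 6.38 CPM in qNSC-like cells. The ranges were separate (−3.29 ± 0.42), and with 7 against 427 UMIs the ratio of the summed levels was 9.87 (95% counting interval 4.75 to 24.7). The ligands Efna1 (−2.24 ± 0.40), Sema3a (−2.03 ± 0.34), Sema3e (−2.02 ± 0.36), Efnb1 (−1.53 ± 0.14), Efnb2 (−1.50 ± 0.16) and Ntn4 (−1.22 ± 0.14) and the receptor Epha4 (−0.95 ± 0.20) were lower. Unc5c, Robo1, Plxnd1, Sema4c and Epha4 were lost without P12 replicate 1 and without P12 replicate 2, Robo1 also without P22 and Sema4c without P2 (adjusted p = 0.0505 to 0.338 by edgeR). Without P12 replicate 2 the number called was 17 and without P12 replicate 1 it was 18. With thresholds on marker transcripts in place of clusters 16 were called, and Plxna2 was not (0.27, adjusted p = 0.606 by edgeR). DESeq2 did not call Robo1, Plxnd1 and Sema4c. Of the effectors 10 of 43 rose and 5 fell, and of the other guidance molecules 6 of 18 rose and 4 fell.

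Oligodendroglial-like cells had guidance genes that other neural classes scarcely held. They were compared with aNSC-like cells in P2, P12 replicate 1 and P22, where 19 of 55 members tested were higher and 13 lower, against 26.3% of all genes (14.9% higher and 11.4% lower), with medians of 0.50 for the members and −0.02 for all genes. Sema3d, a secreted semaphorin on chromosome 5 (12383385 to 12588948, plus strand), was at 28.4, 96 and 106 CPM in oligodendroglial-like and 0, 0.222 and 0.232 CPM in aNSC-like cells (8.72 ± 0.34, adjusted p = 0.00074 by edgeR). Over 1182 and 4 UMIs the ratio was 471 (95% counting interval 184 to 1733). Outside this class Sema3d was highest in ependymal-like cells, at 0 to 5.49 CPM. Plxnb3, a plexin on chromosome X (73757090 to 73772514, plus strand), was at 9.75, 15.6 and 77.2 CPM against 0.213, 0.111 and 0.348 CPM, which is a ratio of 218 (92.9 to 673) over 683 and 5 UMIs.

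Of the 4 Unc5 receptors tested 3 were higher in this class, while Unc5d (−1.12 ± 0.36) and the other netrin receptor, Dcc (0.79 ± 0.53), were not called. Unc5c was at 30.1, 97.1 and 61.1 CPM in oligodendroglial-like and 0.213, 1.67 and 0.348 CPM in aNSC-like cells (6.43 ± 0.39), and Unc5b at 0.861, 4.57 and 46.1 CPM against 0.213, 0.555 and 1.39 CPM (4.08 ± 0.64). Unc5c was separate from aNSC-like cells in all 3 libraries, whereas the P2 value of Unc5b lay within their range. Sema5a, at 114, 158 and 158 CPM against 4.91, 9.33 and 5.8 CPM, rose by 4.39 ± 0.23, and Nrp2 (4.01 ± 0.53), Robo1 (3.77 ± 0.29) and Ntn1 (3.49 ± 0.34) rose as well, with no overlap in Sema5a. Several members were highest at P22, among them Plxnb3, Unc5b, Sema4d (8.03, 25.9 and 197 CPM) and Efnb3 (21.2, 31.2 and 122 CPM). The 13 oligodendroglial markers summed to 6996, 8617 and 39686 CPM in the same libraries, and the part of cell maturity in these levels was not tested.

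Of 7 ephrins tested 4 fell in oligodendroglial-like cells, whereas Efna1 rose (2.69 ± 0.65) and Efna2 (−0.45 ± 0.19) and Efnb3 (1.87 ± 0.62) were not called. Efna5 was at 3.16, 0.381 and 0.254 CPM against 10, 18.9 and 16.7 CPM (−3.91 ± 0.87), and Efna4 (−3.28 ± 0.32), Efnb1 (−2.51 ± 0.34) and Efnb2 (−2.20 ± 0.43) fell with it, beside Epha3 (−2.29 ± 0.59), Robo2 (−1.71 ± 0.33), Epha4 (−1.64 ± 0.19) and Plxna2 (−1.51 ± 0.35). Without P2 the number of members called was 13 and without P22 it was 21. The calls of Efnb1, Efnb2, Plxna2, Robo2 and Epha3 were lost without P2, those of Robo2, Epha3 and Efna5 without P22, and those of Efna5 and Epha3 without P12 replicate 1 (adjusted p = 0.05 to 0.123 by edgeR). With thresholds on marker transcripts Epha3 was higher in oligodendroglial-like cells (1.0) and not called, and Efna5, Robo2 and Plxna2 lost their calls. With the unnamed cluster 9, whose leading genes include Olig1, Olig2 and Egfr, counted as aNSC-like, Efna5, Epha3 and Plxna2 were not called. Of the effectors 6 of 43 were higher and 5 lower, and of the other guidance molecules 8 of 22 and 2.

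**Figure D5:**
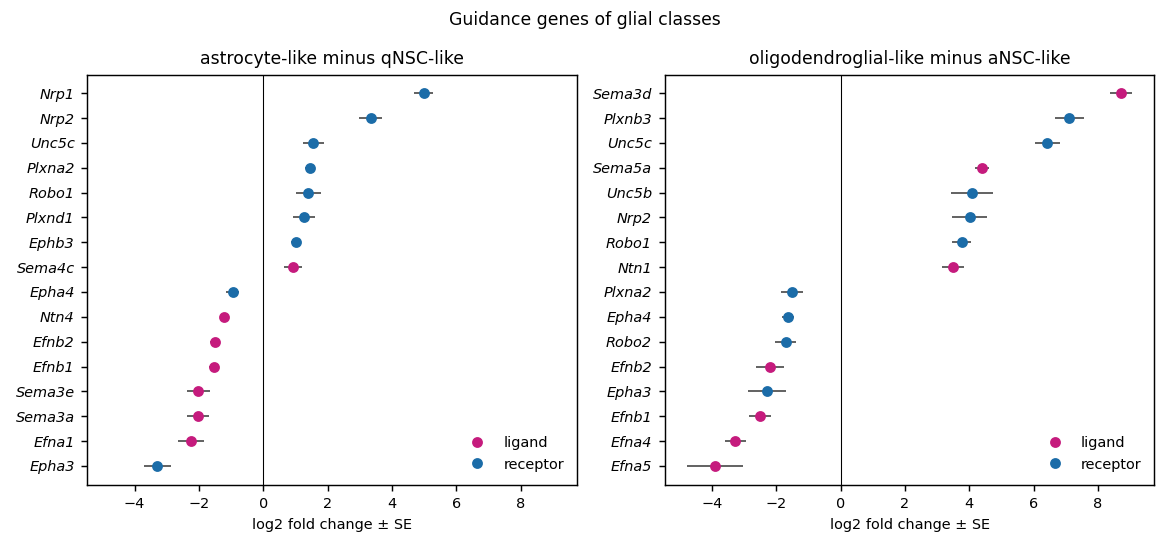
Log2 fold changes with SE (horizontal bars) of the named members in astrocyte-like against qNSC-like cells and in oligodendroglial-like against aNSC-like cells, ligands and receptors in separate colours. The neuropilins lead in astrocyte-like cells and Sema3d, Plxnb3 and Unc5c in oligodendroglial-like cells, while Epha3, Efnb1 and Efnb2 are lower in both.

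Age was examined as a slope over postnatal days 2, 12, 12 and 22 within a class. No member was called in aNSC-like (49 tested), TAP-like (54) or subpallial qNSC-like cells (48) by edgeR, and 0% of all genes were called in each. At an unadjusted p under 0.05 there were 0, 0 and 5 members, and DESeq2 called 0 in each class. Without P2 the slope was called for 16 of 53 members in aNSC-like, 1 of 56 in TAP-like and 5 of 50 in subpallial qNSC-like cells, against 20.3%, 1.42% and 12.2% of all genes. Without P22 it was called for 15 of 49, 0 of 55 and 11 of 50, against 26.3%, 0.417% and 29.1%, fits in which the remaining ages also differ in Cell Ranger version. Pallial qNSC-like cells were too few at P2 for a slope.

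The levels showed another pattern than a slope. In aNSC-like cells both P12 libraries lay at least 2-fold above P2 and P22 for 10 of 52 members with at least 20 UMIs, against 10.9% of all such genes, and for 0 below (2.29%). Sema6a was at 11.3, 45.1, 93.8 and 11.8 CPM and Sema6d at 16.2, 36.7, 82.1 and 13.8 CPM in aNSC-like cells, so that both P12 libraries were above the others and also differed from each other. The other 8 were Ephb4, Ntn1, Sema3a, Sema3b, Sema3e, Sema4d, Slit3 and Unc5c. In TAP-like cells 7 of 56 members had this pattern (8.15% of all genes), in subpallial qNSC-like cells 1 of 50, Unc5c (3.44%), and in astrocyte-like cells 6 of 48 (4.03%), Nrp2, Plxna4, Plxnc1, Plxnd1, Sema3b and Unc5c. Unc5c was the only member with it in all 4 classes, at 0.832, 5.66, 3.84 and 1.41 CPM in subpallial qNSC-like cells.

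These ages also differed in the make-up of the classes. The 7 subpallial regional genes summed to 1732, 241, 82.1 and 1128 CPM in aNSC-like cells and the 21 neuroblast markers to 7454, 1958, 1060 and 6728 CPM. The part of lineage in the P12 pattern was not tested, and age and the version of Cell Ranger cannot be told apart in it. In subpallial qNSC-like cells the 6 pallial regional genes summed to 53.9, 17, 12.9 and 12.7 CPM. At P2 this cluster held 275 of the 293 qNSC-like cells, and the part of lineage in its P2 levels was not tested. Sema3c was at 8.74 CPM in subpallial qNSC-like cells of P2 and at 1.71, 1.12 and 0.352 CPM in the later libraries, and Efnb1 at 97.4 CPM and then at 38.6, 41.2 and 35.2 CPM, each with P2 at least 2-fold above all others (2.44% of all genes). In astrocyte-like cells Efnb1 was the only member with P2 so placed (2.73%), and in aNSC-like and TAP-like cells there was 0 (0.687% and 0.893%). With P22 at least 2-fold above all others there was 1 member, Sema6b, in aNSC-like cells (0.641%) and 0 in TAP-like, subpallial qNSC-like and astrocyte-like cells (0.772%, 1.48% and 1.86%). Both P12 libraries lay lower for 0 members in TAP-like, subpallial qNSC-like and astrocyte-like cells too (1.05%, 0.797% and 0.645%).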

How the data were processed

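The deposited matrices hold raw UMI counts per gene and cell, which the authors made with Cell Ranger on mm10. The file headers name version 3.1.0 for P12 and 5.0.1 for P2 and P22. All else was computed from these counts. Members and lists were chosen with earlier results of these data known. Cells were filtered as stated, and P12 cells were integrated and clustered with Seurat 5.3.0 in R 4.3.3 (2000 variable genes less 41 of 149 listed guidance, effector and regional genes, 20 components, resolution 0.5). Names were transferred from P12 to P2 and P22. Regional gates took cells with any gene of one side above a log-normalised value of 0.25, none of the other side and, among TAP-like and neuroblast-like cells, no Olig1 or Olig2. Doublets were scored with scanpy 1.11.5 under Python 3.11.15. The caller marked 0.0870% of cells in P12 replicate 2, where it did not work, so called cells were kept and the 5% highest scores left out as an alternative.

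Counts were summed per library and class and tested with edgeR 4.0.16 (limma 3.58.1), quasi-likelihood, TMM, filterByExpr, library as block, with Benjamini-Hochberg adjustment over all genes tested at 0.05. The test was tested on simulated data. Each library supplied every class from its own animals, which pairs the classes. In comparisons between classes the p-values rest on the spread of the class difference between libraries. Only P12 was replicated, so that this spread also holds changes of the difference with age. In age slopes they rest on the spread of libraries about the slope. Mean log2 TMM factors differed by −0.16 in TAP-like minus aNSC-like, 0.17 in neuroblast-like minus TAP-like, 0.16 in GLU minus GABA and 0.14 between the neuroblast-like clusters. Fold changes are relative to these factors, which moved them by the same amounts in the opposite direction. Alternatives were RLE, DESeq2 1.42.0, no filter, no block, P12 alone, 2500 to 7500 genes per cell, marker thresholds of the study's methods and each library left out. The comparison of neuroblast-like clusters, the subpallial age slope and the use of unnamed clusters 3 and 9 were added after seeing the data.

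Named were, per comparison, up to 8 higher and 8 lower members called of largest fold change with a mean of at least 5 CPM in the higher class, per class the 3 ligands and 3 receptors of highest level, and Dcc and Slit2. Members beyond this rule were chosen after their values were seen. Poisson and Clopper-Pearson intervals are exact at 95%. Gene positions follow GENCODE vM21 and upstream sequences RefSeq's GRCm38.p6.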

Additional observations from a re-analysis of the deposited data

Results flagged for a closer look

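The regional difference of quiescent stem cells differed from that of TAP-like and neuroblast-like cells for 3 receptors, by the interaction term of the edgeR quasi-likelihood fit over 4 libraries. As pallial minus subpallial in qNSC-like cells less GLU minus GABA in TAP-like and neuroblast-like cells, the log2 value was −4.0 for Epha3, −4.23 for Robo1 and −4.24 for Unc5d. In Epha3 the subpallial stem cells were the higher in 4 of 4 libraries, and GLU cells in 3 of 4. In Robo1 the subpallial stem cells were the higher in 4 of 4 libraries and GLU cells in 3 of 4, while in Unc5d the GLU cells were the higher in 4 of 4 and the stem cells were split, 3 libraries higher on the pallial side and 1 on the subpallial. At P2 most of the pallial-gated stem cells lay in the cluster called subpallial. The share of neuroblast-like cells differed between the GLU and GABA cells of each library, and its part in these values was not tested.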

How the results depend on the processing

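The limits of these data are the single libraries of P2 and P22, a library, P12 replicate 2, with few neuroblast-like and oligodendroglial-like cells, and residual degrees of freedom of 2 or 3 in all comparisons but the one of lineage by stage (9). Members under the filter on low counts were not tested, and a change in them was not detectable at this depth. With 1 library left out, a lone library of an age is assumed to vary like the others.

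All tests between classes had a replicate block, since each library supplied its classes from its own animals. With no replicate block, the members called went from 35 to 23 for aNSC-like minus qNSC-like, from 22 to 0 for TAP-like minus aNSC-like, from 27 to 3 for pallial minus subpallial qNSC-like, from 11 to 5 for GLU minus GABA, from 15 to 0 for ependymal-like minus qNSC-like and from 27 to 3 for astrocyte-like minus qNSC-like. It moved no other count by over 1.5 times. Except for the age slopes without P2 or P22, counts under alternative settings are given without the share of all genes called. Such counts show how the calls depend on the setting and are not a trait of the members.

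DESeq2 called 14 members between pallial and subpallial qNSC-like cells, 9 in ependymal-like cells and 7 in lineage by stage. No filter on low counts gave 18 for GLU minus GABA, 23 in ependymal-like cells, 5 in lineage by stage and 1 for the age slope in subpallial qNSC-like cells. The P12 libraries alone gave 7 for GLU minus GABA, and marker thresholds 16 in astrocyte-like cells. Leaving out 1 library at a time gave 25 to 35 members for aNSC-like minus qNSC-like, 14 to 20 for TAP-like minus aNSC-like, 14 to 32 for pallial minus subpallial qNSC-like, 6 to 17 for GLU minus GABA, 6 to 17 in ependymal-like, 17 to 31 in astrocyte-like and 13 to 23 in oligodendroglial-like cells, 0 to 3 in lineage by stage, and 0 to 16, 0 to 1 and 0 to 11 for the age slopes in aNSC-like, TAP-like and subpallial qNSC-like cells.

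Marker thresholds in place of clusters turned the direction of Sema3a (−1.10), Sema3c (−1.76), Robo2 (−1.09), Dcc (−0.037), Slit1 (2.73) and Ephb2 (1.61) in TAP-like minus aNSC-like, of Ephb3 (0.65) in neuroblast-like minus TAP-like and of Epha3 (1.0) in oligodendroglial-like minus aNSC-like. The cause was not tested. Over 122 values of named members and 1418 alternatives, 1233 kept direction and call, 177 lost the call and 8 turned. Not run were the P12 libraries alone for neuroblast-like and oligodendroglial-like cells (too few in replicate 2), the age slope in pallial qNSC-like cells and marker thresholds for GLU minus GABA.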

Other observations

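Clusters 3, 4, 9 and 10, with 1156, 1042, 395 and 293 cells at P12, were not named by the fixed markers. Apart from the alternatives with clusters 3 and 9, their cells entered none of the classes compared. Clusters 3, 4 and 9 also held guidance transcripts. A cluster whose leading genes include Rgs5 had Sema3a at 6.72, 16.1, 19 and 23.1 CPM and Epha4 at 200, 263, 267 and 139 CPM in P2, P12 replicate 1, P12 replicate 2 and P22. Its P22 values rest on only 23 cells, with a median transfer score of 0.51. A cluster led by Igf1 and Gdf5 had Epha4 at 202, 229, 289 and 63 CPM. A cluster with Olig1, Olig2 and Egfr among its leading genes had Epha4 at 73.9, 154, 115 and 95.2 CPM, Slit1 at 4.93, 6.64, 1.88 and 14.3 CPM and Nrp1 at 6.78, 7.64, 6.03 and 5.24 CPM. Its Sema3d was at 0.308, 0.201, 0 and 1.9 CPM, below the oligodendroglial-like cells of each library.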
